A study of Mus with 12 samples.

Results

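Immediate early response genes were followed in the whole-blood transcriptomes of female BALB/c mice, in 12 RNA-seq libraries of 1 sample each. The set was chosen by gene name, with earlier results of these data known, and holds 10 of the 25247 genes of the expression table: Fos, Fosb, Jun, Junb, Jund, Egr1, Klf6, Ier2, Dusp1 and Zfp36. A total of 8 passed the expression filter, which required an FPKM (fragments per kilobase of transcript, relative to library size) of at least 1 in at least 3 libraries and left 5527 genes for testing. Fosb and Egr1 did not pass. Jun passed only through the 3 DNCB libraries, so that counts over the genes tested are not counts over the whole set.

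The mice were 6 weeks old at purchase and were assigned to 4 groups, each with 3 samples. Solvent mice had vehicle, a mixture of acetone and olive oil, on shaved dorsal skin and right ear. DNCB mice were sensitised there with 1% 1-chloro-2,4-dinitrobenzene, a hapten that provokes contact hypersensitivity, and challenged with 0.5%, as a model of atopic dermatitis. The scMSC and scivMSC mice received the same DNCB course together with human umbilical cord mesenchymal stem cells. The scMSC mice had 100 µL of cells under the skin. The scivMSC mice had 50 µL under the skin and 50 µL into the tail vein. Blood was taken on day 30. No group is labelled as injected with the carrier without cells, so cells and injection cannot be told apart, and both MSC groups share their DNCB reference libraries. The sources used here do not say whether each sample came from 1 mouse, so that p-values measure the spread between these samples, which may in part be technical.

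Immediate early genes are switched on within minutes of a stimulus without new protein synthesis, mainly through MAP kinases acting on serum response factor, ternary complex factors and CREB. Fos and Jun proteins pair to form the transcription factor AP-1, and Egr1 and Klf6 are zinc finger transcription factors. Dusp1 (a MAP kinase phosphatase) and Zfp36 (tristetraprolin, which speeds the decay of mRNAs with AU-rich elements) belong to the feedback that ends the response, and in blood these genes are strongly expressed in myeloid cells.

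The libraries held 52179764 to 65139421 estimated counts. Haemoglobin transcripts made up 91.3% to 95.6% of summed FPKM. In estimated counts, a measure without correction for transcript length, 5843407 to 12858063 per library lay outside haemoglobin. Fold changes were scaled by total counts, and each was also computed with TMM, a scaling that centres the bulk of genes, with factors between 0.33 (scivMSC replicate 2) and 1.87 (Solvent replicate 1). The choice matters here. With total counts, all tested genes had a median log2 fold change of 0.06 when DNCB was set against Solvent. It was -0.63 when scMSC, and -1.53 when scivMSC, was set against DNCB. With TMM these medians were -0.09, 0.06 and 0.04. A gene was called when the Benjamini-Hochberg adjusted p of edgeR's quasi-likelihood test was under 0.05 and its level changed more than 2-fold. In whole blood, fewer cells of a type and less RNA per cell cannot be told apart.

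The AP-1 genes spanned a wide range of levels. Jund was the most abundant of the set, at a mean of 26.6 FPKM over the 12 libraries, and was followed by Junb at 16.9. Zfp36 (7.47), Dusp1 (7.36), Klf6 (7.27) and Ier2 (5.91) formed a middle tier, and their neighbours in that order overlapped in range. Fos had a mean of 1.64, Jun 0.729, Egr1 0.167 and Fosb 0.04 FPKM.

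Fos (chromosome 12, 85473890 to 85477273, plus strand, ENSMUSG00000021250, in the coordinates of the deposited table) encodes the inducible partner of Jun proteins in AP-1. It measured 2.03, 0.911 and 0.578 FPKM in the Solvent samples and 5.14, 3.78 and 3.19 in the DNCB samples. It measured 0.679, 1.06 and 0.893 in the scMSC samples and 0.641, 0.141 and 0.603 in the scivMSC samples. Each DNCB library thus lay above each of the other 9, while the Solvent and scMSC ranges overlapped. The DNCB to Solvent ratio of mean FPKM was 3.44, with a log2 fold change of 1.77 (SE 0.55, n = 3 per group, edgeR adjusted p = 0.0274). That call rested on few libraries, and leaving out Solvent replicate 2 or 3, or DNCB replicate 1 or 2, raised the adjusted p to between 0.0561 and 0.121.

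Its close relative Fosb (chromosome 7, 19302696 to 19310051, minus strand, ENSMUSG00000003545) was barely detected. Its counts ran from 0 to 48 and its FPKM from 0 to 0.137, the highest in scMSC replicate 1 and listed at 0 in Solvent replicate 3. The 4 group means lay between 0.0305 and 0.0652 FPKM with overlapping ranges. No difference between groups was detectable at this depth.

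Junb (chromosome 8, 84976910 to 84978718, minus strand, ENSMUSG00000052837), an inducible Jun family subunit, measured 15.1, 10 and 6.81 FPKM in Solvent samples and 36.3, 49.7 and 38.4 in DNCB samples. In scMSC samples it measured 10.8, 10.3 and 11.2 FPKM, and in scivMSC samples 6.89, 2.27 and 5.36. The lowest DNCB sample had more than the highest sample of any other group. Its mean was 10.6 ± 4.16 (SD, n = 3) in Solvent and 41.5 ± 7.21 in DNCB, a ratio of 3.9 and a log2 fold change of 1.96 (SE 0.38, edgeR adjusted p = 0.00148). Junb kept its call in DNCB against Solvent and in both MSC groups against DNCB under every alternative run.

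Jun (chromosome 4, 95049034 to 95052222, minus strand, ENSMUSG00000052684), which encodes c-Jun, was the scarcest of the genes tested. It measured 0.679, 0.538 and 0.339 FPKM in Solvent samples, 1.15, 1.92 and 1.72 in DNCB samples, 0.411, 0.701 and 0.643 in scMSC samples and 0.307, 0.137 and 0.207 in scivMSC samples. The DNCB samples were again apart from all others, and the scivMSC samples were below all others. The log2 fold change of DNCB against Solvent was 1.62 (SE 0.47, edgeR adjusted p = 0.0195). It was not called without Solvent replicate 2 or 3, without DNCB replicate 2 or 3, or without the expression filter (adjusted p = 0.077).

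Jund (chromosome 8, 70698949 to 70700616, plus strand, ENSMUSG00000071076) is the Jun family member known for steady expression in resting cells. Solvent samples had 31, 22.6 and 23.9 FPKM and DNCB samples 34.2, 42.5 and 32.8. In scMSC samples it measured 25.6, 20.5 and 21.9, and in scivMSC samples 21.4, 21 and 22. The DNCB libraries were the highest, but the gap to Solvent replicate 1 was small. The ratio of DNCB to Solvent was 1.41, and its log2 fold change of 0.50 (SE 0.25, edgeR adjusted p = 0.174) did not pass the test.

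Egr1 (chromosome 18, 34859823 to 34864984, plus strand, ENSMUSG00000038418), which encodes a serum-responsive zinc finger factor, had a different order of groups. It measured 0.563, 0.294 and 0.223 FPKM in Solvent samples, 0.189, 0.172 and 0.127 in DNCB samples, 0.15, 0.0666 and 0.0139 in scMSC samples and 0.145, 0 and 0.0578 in scivMSC samples. The lowest Solvent sample was above the highest sample of each DNCB-exposed group. These levels came from 0 to 169 counts, and in the fit without an expression filter the log2 fold change of DNCB against Solvent was -1.14 (SE 0.91, edgeR adjusted p = 0.525). The difference did not pass the test.

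Klf6 (chromosome 13, 5861482 to 5870394, plus strand, ENSMUSG00000000078), a Krüppel-like factor, measured 6.77, 5.86 and 3.9 FPKM in Solvent samples and 13, 19.4 and 12.3 in DNCB samples. It measured 6.93, 5.04 and 6.5 in scMSC samples and 3.96, 1.75 and 1.93 in scivMSC samples. The DNCB libraries did not overlap any others, and the log2 fold change against Solvent was 1.43 (SE 0.35, edgeR adjusted p = 0.00757).

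Ier2 (chromosome 8, 84661331 to 84662854, minus strand, ENSMUSG00000053560), a short gene named for its rapid induction, measured 7.83, 4.52 and 3.74 FPKM in Solvent samples and 12.2, 14.4 and 10.6 in DNCB samples. In scMSC samples it measured 4.6, 3.6 and 4.46, and in scivMSC samples 2.07, 0.575 and 2.33. The scivMSC samples lay below every other sample. Although DNCB and Solvent did not overlap, the log2 fold change of 1.21 (SE 0.44) missed the threshold with total-count scaling (edgeR adjusted p = 0.0608). It was called with TMM (log2 fold change 1.10, adjusted p = 0.00587).

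Dusp1 (chromosome 17, 26505590 to 26562128, minus strand, ENSMUSG00000024190) dephosphorylates p38, JNK and ERK kinases. It measured 4.79, 3.65 and 2.37 FPKM in Solvent samples, 18.8, 22.4 and 11 in DNCB samples, 7.44, 4.59 and 4.58 in scMSC samples and 4.12, 1.15 and 3.43 in scivMSC samples. It had the highest DNCB to Solvent ratio of the set, 4.83, with a log2 fold change of 2.27 (SE 0.45, edgeR adjusted p = 0.00154), above that of 93.3% of tested genes. The deposited Dusp1 interval spans 56539 bases and overlaps Ergic1 and Gm8225 on the other strand, whose highest values were 0.717 and 0.0601 FPKM. As the sources used here do not state whether counting used strand, reads from a gene and its antisense partner cannot be told apart, which also holds for Jund and Gm11175 (at most 0.417 FPKM), Zfp36 and Gm44710 (at most 0.397) and Jun and Junos (at most 0.0293).

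Zfp36 (chromosome 7, 28376784 to 28380253, minus strand, ENSMUSG00000044786) measured 7.7, 5.3 and 4.44 FPKM in Solvent samples and 13.7, 22.4 and 14.8 in DNCB samples. It measured 5.01, 4.01 and 5.81 in scMSC samples and 3.04, 0.995 and 2.37 in scivMSC samples. The DNCB libraries were the highest and the scivMSC libraries the lowest, with no overlap of either with the rest. The log2 fold change of DNCB against Solvent was 1.55 (SE 0.38, edgeR adjusted p = 0.00818).

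**Figure D1:**
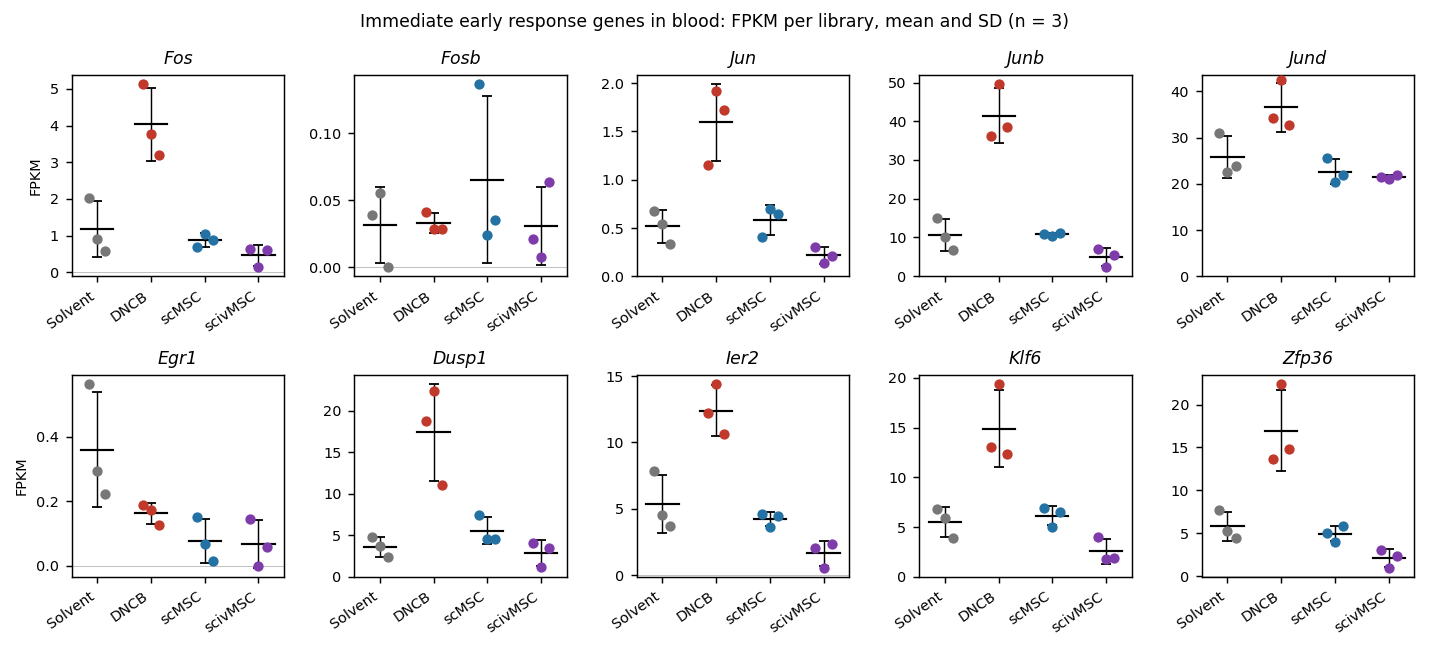
FPKM of the 10 immediate early genes in each of the 12 libraries (linear axes, 1 panel per gene), with 1 point per sample and a bar with whiskers at each group mean and SD (n = 3). The DNCB points lie above all others in the 8 tested genes, whereas the Solvent points are the highest for Egr1 and the groups overlap for Fosb.

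In DNCB against Solvent, Fos, Jun, Junb, Dusp1, Klf6 and Zfp36 rose, 6 of the 8 genes tested and none fell, beside 15.6% of all tested genes called higher. Their median log2 fold change was 1.58. The groups did not overlap in FPKM for 9 of the 10 genes, beside 41.5% of all tested genes. For Egr1 the Solvent samples were the higher ones, and Fosb was the exception. With TMM, 7 were called higher, now with Ier2, beside 16.1% of tested genes. Without the expression filter, 5 of the 10 were called higher, beside 3.41% of the 25247 genes.

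Subcutaneous MSC treatment went with lower levels. Against DNCB, Fos, Jun, Junb, Dusp1, Ier2, Klf6 and Zfp36 fell, 7 of 8 tested, beside 24.9% of all tested genes called lower. The largest decrease was that of Fos, from 4.04 ± 0.998 to 0.878 ± 0.192 FPKM, a log2 fold change of -2.19 (SE 0.55, edgeR adjusted p = 0.00763). Junb went from 41.5 to 10.8 ± 0.459 FPKM (log2 fold change -1.96, SE 0.38, adjusted p = 0.00174), and Zfp36 from 17 ± 4.72 to 4.94 ± 0.898 (-1.79, SE 0.39, adjusted p = 0.0031). The other calls were Dusp1 at -1.66, Ier2 at -1.57, Jun at -1.45 and Klf6 at -1.28, with adjusted p of 0.00983, 0.0151, 0.0278 and 0.0122. Jun, which passed the expression filter only through its DNCB libraries, was not called without that filter (edgeR adjusted p = 0.129). Jund had a log2 fold change of -0.70 (adjusted p = 0.0464), which is less than 2-fold and close to the median of all tested genes. The groups did not overlap for 8 of the 10 genes, beside 55.3% of all tested genes.

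Only Fos, Junb and Zfp36 were called with TMM as well, at log2 fold changes of -1.49, -1.26 and -1.09, beside 12.3% of tested genes called lower. With TMM Dusp1 was at -0.96, Ier2 at -0.88 and Klf6 at -0.58 (edgeR adjusted p = 0.0148, 0.0253 and 0.0236), which is less than 2-fold. Jun was at -0.73 and Jund at -0.01 (edgeR adjusted p = 0.0954 and 0.982). Single libraries also moved this count: 3 genes were called without DNCB replicate 2 or without scMSC replicate 2, and 4 without scMSC replicate 3. Jun lost its call without DNCB replicate 2 or 3 or without any 1 scMSC sample (adjusted p 0.0652 to 0.113), whereas Fos, Junb and Zfp36 were called without any single library.

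After injection by the combined subcutaneous and intravenous route, the mean FPKM of each of the 8 tested genes was the lowest of the 4 groups. This order depended on scaling: in TMM-scaled FPKM the Solvent mean was lower for Fos (0.779 against 0.839), Jun (0.367 against 0.416), Junb, Dusp1, Klf6 and Jund. The same 7 genes fell in scivMSC against DNCB, beside 62.0% of all tested genes called lower, so that most of the transcriptome met the same threshold in that direction. Fos went from 4.04 to 0.462 ± 0.278 FPKM (log2 fold change -3.10, SE 0.58, edgeR adjusted p = 0.000241). Junb went to 4.84 ± 2.36 (-3.10, SE 0.40, adjusted p = 1.29e-05) and Zfp36 to 2.13 ± 1.04 (-2.99, SE 0.41, adjusted p = 1.74e-05). Ier2 was at -2.90, Jun at -2.86, Dusp1 at -2.58 and Klf6 at -2.55, with adjusted p of 7.27e-05, 0.000126, 0.000145 and 2.78e-05. The groups did not overlap for 8 of the 10 genes, beside 73.3% of all tested genes.

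Relative to the median of all tested genes, those log2 fold changes ran from -1.57 for Fos and Junb to -1.02 for Klf6. With TMM, 6 of the 7 were still called, beside 18.9% of tested genes. Klf6 had a log2 fold change of -0.97 there, just under 2-fold (adjusted p = 0.000524). The count of 7 was the same when any single library was left out, including scivMSC replicate 2, which had the fewest genes with a count (12437) and the lowest level of Fos, Jun, Junb, Dusp1, Ier2, Klf6 and Zfp36 among all 12 libraries.

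Jund stood apart in this comparison by its dependence on scaling. Its log2 fold change was -0.77 with total counts (adjusted p = 0.0124) but 0.95 with TMM (adjusted p = 0.00443), both less than 2-fold. In TMM-scaled FPKM its mean was 18.7 ± 2.32 in Solvent, 23.6 ± 0.857 in DNCB, 23.6 ± 1.47 in scMSC and 45.7 ± 17.6 in scivMSC samples. Junb in the same units went from 7.41 ± 1.18 to 26.7 ± 1.96, 11.3 ± 1.14 and 9.01 ± 2.06.

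**Figure D2:**
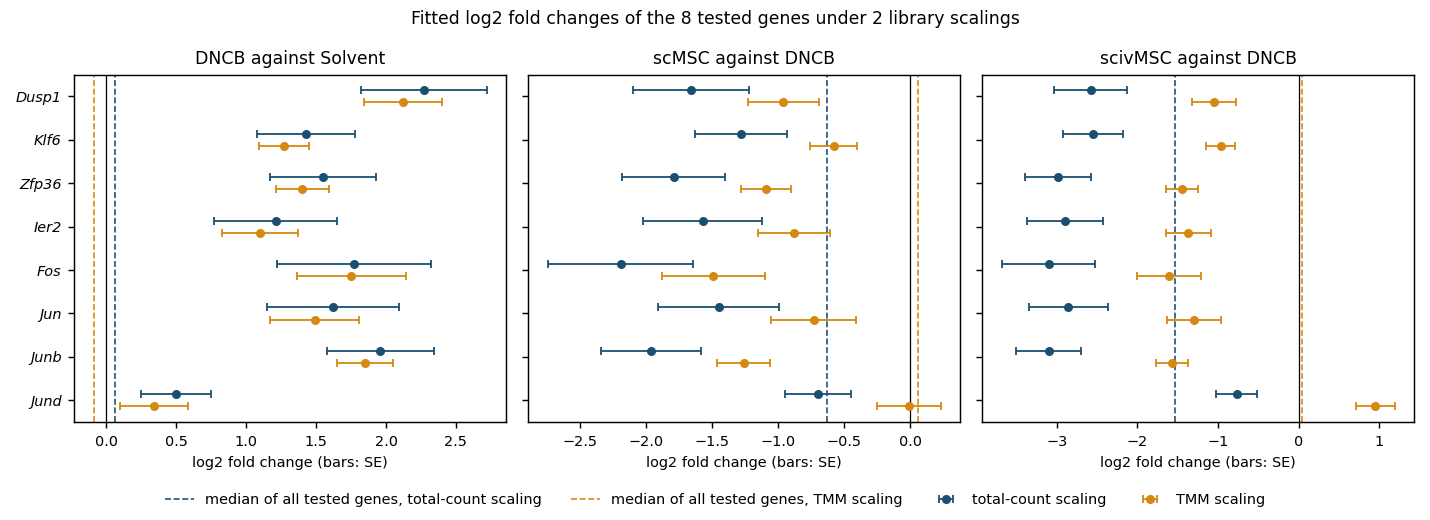
Log2 fold changes of the 8 tested genes with their standard errors in the 3 comparisons that involve the DNCB samples, with total-count scaling (blue) and with TMM (orange); dashed lines mark the median of all tested genes. Both scalings place Fos, Junb and Zfp36 beyond 2-fold in each panel, while the sign for Jund in scivMSC against DNCB depends on the scaling.

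The MSC groups were also set against Solvent samples. None of the 8 tested genes was called in scMSC against Solvent by edgeR with total counts, beside 0.651% of all tested genes called in either direction. None had an unadjusted p under 0.05. The log2 fold changes of the 8 ran from -0.42 to 0.61, and Dusp1 had the highest. With TMM they ran from 0.23 to 1.16, with a median of 0.46 against -0.03 for all tested genes. With TMM, Dusp1 was called higher (log2 fold change 1.16, adjusted p = 0.0142), beside 7.29% of tested genes called higher. With TMM 4 genes had an unadjusted p under 0.05, DESeq2 also called 1, and limma none. No share of all tested genes is given for unadjusted p, DESeq2 or limma, so those counts cannot show a trait of the members. Egr1 was the only one of the 10 whose groups did not overlap in FPKM, beside 47.6% of all tested genes. In TMM-scaled FPKM 7 of the 10 did not overlap, beside 44.5%. Of those, Egr1 was lower in scMSC samples and the rest were higher.

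In scivMSC against Solvent, Fos, Jun, Junb, Ier2, Klf6 and Zfp36 were called lower with total counts, beside 59.2% of all tested genes called lower. Ier2 had the lowest log2 fold change, -1.69 (adjusted p = 0.00401). With TMM none of these was called, whereas Jund (1.28, adjusted p = 0.000699) and Dusp1 (1.07, adjusted p = 0.00504) were called higher, beside 22.4% of tested genes called higher. The groups did not overlap for 5 of the 10 genes, beside 68.7% of all tested genes, and in TMM-scaled FPKM for 3, beside 58.7%. The count of 6 became 2 without Solvent replicate 1 or without scivMSC replicate 2.

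Between the injection routes, Jun, Junb, Ier2, Klf6 and Zfp36 were called lower in scivMSC than in scMSC samples, beside 30.4% of all tested genes called lower. The ranges of the groups did not overlap for 7 of the 10 genes, beside 50.5% of all tested genes, and in TMM-scaled FPKM for 2, beside 44.0%. With TMM none was called by edgeR, beside 4.92% of tested genes called lower. With TMM 2 had an unadjusted p under 0.05, DESeq2 called none and limma 3, again without a share of all tested genes to set beside them. The count also fell to 0 without scMSC replicate 1, scMSC replicate 3 or scivMSC replicate 2, to 1 without scivMSC replicate 3 and to 3 without scMSC replicate 2.

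The make-up of AP-1 transcripts was examined as a quantity that no scaling between libraries can move, and it was chosen after the values were seen, so it is given as a description without a test. It is each gene's share of the summed FPKM of Fos, Fosb, Jun, Junb and Jund in the same library. Other AP-1 genes, such as Fosl2 with a mean of 5.73 FPKM in DNCB samples, are outside the sum of these 5. That sum was 31.6 to 48.8 FPKM in Solvent samples, 76.0 to 98.0 in DNCB samples, 32.6 to 37.7 in scMSC samples and 23.6 to 29.3 in scivMSC samples.

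Jund made up 63.5%, 66.3% and 75.5% of that sum in the Solvent samples and 44.5%, 43.4% and 43.1% in the DNCB samples. In scMSC samples its share was 67.9%, 63.0% and 63.2%, and in scivMSC samples 73.1%, 89.2% and 77.9%. The DNCB samples were below every other sample and close to each other (43.7% ± 0.756).

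Junb had the opposite pattern, with 30.9%, 29.3% and 21.6% in Solvent samples and 47.2%, 50.7% and 50.4% in DNCB samples. Its share was 28.8%, 31.5% and 32.2% in scMSC samples and 23.6%, 9.62% and 19.0% in scivMSC samples. Among the genes summed, Junb was thus the leading AP-1 transcript in DNCB samples and Jund in all others. Fos averaged 2.89% ± 1.18, 4.91% ± 1.54, 2.55% ± 0.731 and 1.64% ± 0.905 in Solvent, DNCB, scMSC and scivMSC samples, and Jun 1.35% ± 0.254, 1.9% ± 0.384, 1.7% ± 0.548 and 0.788% ± 0.238.

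**Figure D3:**
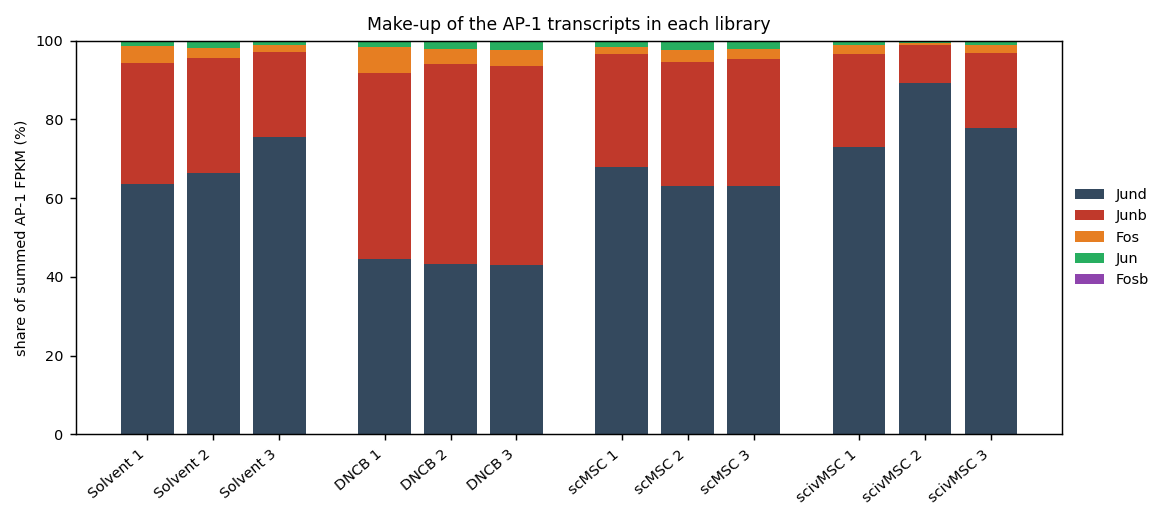
Share of each of the 5 AP-1 genes in their summed FPKM (percent), with 1 bar per sample, stacked to 100%. Junb is the larger part in the 3 DNCB samples, at 47.2% to 50.7%, and Jund in the other 9, at 63.0% to 89.2%.

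Across the 12 libraries the 8 tested genes moved together. Pearson r of log2(FPKM + 1) between pairs ran from 0.85 to 0.99, the highest for Junb and Zfp36, and every pair shares the same libraries and their depth. With TMM-scaled values, pairs without Jund had r of 0.68 to 0.97, and Jund with the other 7 of -0.43 to 0.09. The profile in log2(FPKM + 1) most like each member was sought among tested genes, leaving out other members and systematic names (Gm or Rik). Nearest among these were Lmo4 for Fos (r = 0.975), Rnf144a for Jun (0.985), AB124611 for Junb (0.997) and Slc8b1 for Jund (0.977). For the rest they were Ccl6 for Dusp1 (0.979), Fxyd5 for Ier2 (0.993), Cd300c2 for Klf6 (0.993) and Hcls1 for Zfp36 (0.996). Ier5, another immediate early gene, was the next nearest to Ier2 (r = 0.993). The separation of the DNCB samples from the rest enters each of these values.

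Markers of blood leukocytes differed between the same groups. The 10 neutrophil markers, all tested and none at 0, summed to 220 to 445 FPKM in Solvent samples, 6960 to 10900 in DNCB samples, 572 to 716 in scMSC samples and 243 to 729 in scivMSC samples. All 10 were called higher in DNCB against Solvent, beside 15.6% of all tested genes. All 10 were also called lower in scMSC and scivMSC against DNCB, beside 24.9% and 62.0% of all tested genes. The monocyte markers, 6 of 8 tested, summed to 58.7 to 179, 411 to 666, 85.3 to 93.7 and 80.4 to 112 FPKM. Of these, 4 were called higher in DNCB against Solvent, beside the same 15.6%. Against DNCB, 4 were lower after subcutaneous and 5 after combined injection, beside the same 24.9% and 62.0%. With TMM 4 were lower after subcutaneous injection, and 2 lower and 1 higher after combined injection, beside 12.3% and 18.9% called lower.

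T cell markers went the other way between Solvent (60 to 101 FPKM) and DNCB samples (23.1 to 32.8), as did B cell markers (76.1 to 221 and 23.2 to 56.8). Both were lowest in FPKM in scivMSC samples, at 8.24 to 21.6 and 8.45 to 16. In TMM-scaled FPKM, T cell markers were lowest in DNCB samples (17.2 to 22.4, against 24.9 to 31.9 in scivMSC) and B cell markers overlapped between those groups (17.4 to 30.5 and 17.1 to 32.8). NK cell markers, 3 of 6 tested, went from 24.8 to 29.9 FPKM in Solvent to 8.75 to 12.2 in DNCB, 4.43 to 12.9 in scMSC and 4.01 to 11.7 in scivMSC samples. Eosinophil and basophil markers, 3 of 8 tested, were at 1.56 to 2.55, 7.13 to 8.1, 2.39 to 5.8 and 1.96 to 6.03 FPKM in the same order, with Epx at 0 in Solvent samples. Platelet markers, 8 of 8 tested, were at 389 to 615, 606 to 831, 739 to 961 and 764 to 898 FPKM. Of these, 4 were called higher in DNCB against Solvent, beside 15.6% of all tested genes. Erythroid markers, at 4030 to 5080 FPKM over all libraries, overlapped between the groups. With TMM each of the 5 tested erythroid markers was called higher in scivMSC than in every other group, at sums of 6760 to 14300 against 2190 to 5050 elsewhere. Against Solvent, 22.4% of all tested genes were called higher with TMM, and the shares against the other groups are not given here. Within groups, the library with the lowest haemoglobin share held the highest level of 9 of the 10 genes in Solvent samples. The same held for 7 in DNCB, 6 in scMSC and 7 in scivMSC samples. In scMSC samples the lowest share, 93.9%, was close to the next, 94.1%. These counts include the scarce Fosb and Egr1. No such count was made over all tested genes, so they cannot show a trait of the members. The part of leukocyte make-up and haemoglobin share in the differences of the immediate early genes was not tested.

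**Figure D4:**
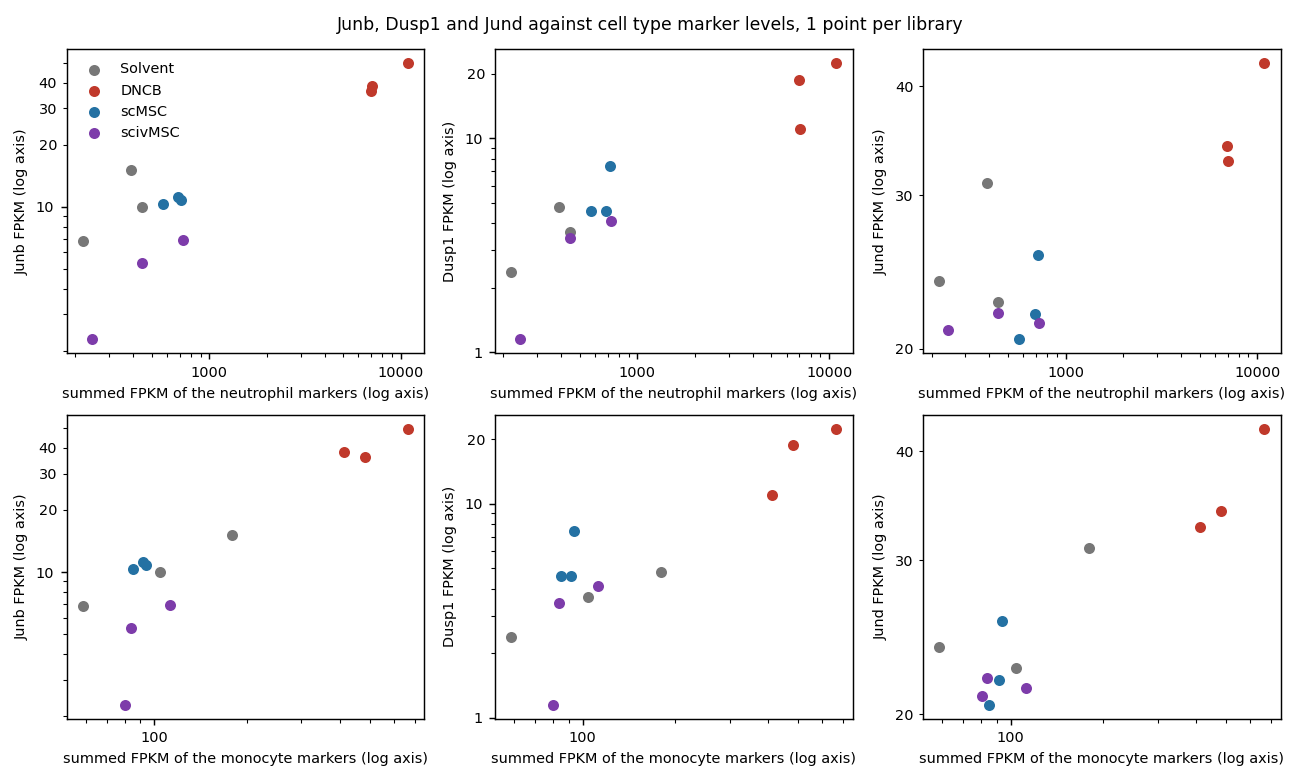
FPKM of Junb, Dusp1 and Jund against the summed FPKM of neutrophil markers (top) and monocyte markers (bottom), log axes, with 1 point per sample. The DNCB samples sit apart at 6960 to 10900 FPKM of neutrophil markers and 411 to 666 of monocyte markers, together with the highest levels of each gene.

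Other genes of the immediate early response were taken from lists chosen with results of these data known. Of 25 further immediate early genes 17 were tested, and 7 rose and none fell in DNCB against Solvent, beside 15.6% of all tested genes called higher (median log2 fold change 0.92, against 0.06 for all tested genes). Against DNCB, 9 fell in scMSC and 14 in scivMSC samples, beside 24.9% and 62.0% of all tested genes called lower. With TMM 3 and 9 were called lower, and 1 was called higher in scivMSC samples, beside 12.3% and 18.9% called lower. The filter can admit a gene through its DNCB libraries, as with Jun, so these are not counts over the 25. Klf10, named after its value was seen, averaged 1.44 FPKM in DNCB and 0.574 in Solvent samples. Its call in DNCB against Solvent ended without the expression filter (edgeR adjusted p = 0.157). By level, the leading genes of that list were Mcl1, Klf2, Pim1 and Btg2. Mcl1, a survival factor of the Bcl-2 family, had 26.4 ± 7.83 FPKM in Solvent and 76.3 ± 20.4 in DNCB samples (log2 fold change 1.53, SE 0.34, edgeR adjusted p = 0.00352). Klf2, a quiescence factor, had 30.9 ± 11.1 and 32 ± 8.49 (0.05, adjusted p = 0.946). Pim1 (0.32, adjusted p = 0.478) and Btg2 (0.24, adjusted p = 0.755) also did not pass.

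AP-1 can include further basic leucine zipper proteins. Of 12 such partners 5 were tested and 3 rose in DNCB against Solvent, beside 15.6% of all tested genes called higher. Fosl2, a Fos family subunit, went from 0.787 ± 0.186 to 5.73 ± 1.37 FPKM (log2 fold change 2.86, SE 0.55, edgeR adjusted p = 0.00134), and was at 1.53 ± 0.0407 in scMSC and 0.545 ± 0.435 in scivMSC samples. Mafg was at 1.3 (SE 0.35, adjusted p = 0.0131). Jdp2, named after its value was seen, had 3.25 (SE 0.57, adjusted p = 0.000633). The Mafg call ended without Solvent replicate 2 or 3 or DNCB replicate 2 (adjusted p 0.0544 to 0.077). Batf (0.90, adjusted p = 0.234) and Mafk (0.34, adjusted p = 0.639) did not pass. Of the 5, 3 were lower in scMSC and 4 in scivMSC samples than in DNCB samples, beside 24.9% and 62.0% of all tested genes. With TMM 2 and 2 were called lower, beside 12.3% and 18.9%.

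Among upstream genes, few were called in DNCB against Solvent, and their share was not above that of all tested genes (15.6% called higher). Of 22 MAP kinase cascade genes 15 were tested and 2 rose, among them Mapk3, which encodes ERK1 (9.84 ± 2.3 and 23.9 ± 4.69 FPKM, log2 fold change 1.28, SE 0.27, edgeR adjusted p = 0.00276). Mapkapk2 was at 0.98 (adjusted p = 0.0656), Map2k3 at 0.27 (0.611) and Map2k2 at -0.16 (0.753). Of 12 genes of the SRF, ternary complex factor and CREB group 7 were tested and none was called: Atf1 was at 1.10 (adjusted p = 0.0691), Mrtfa at 0.96 (0.076), Srf at 0.46 (0.489) and Elk4 at -0.76 (0.184). Against DNCB, 5 and 10 of the 15 kinase cascade genes and 3 and 7 of the 7 factors were lower in scMSC and scivMSC samples with total counts, beside 24.9% and 62.0% of all tested genes. With TMM, 1 and 4 of the cascade genes were called lower and 1 and 3 higher. For the factors, 0 and 2 were called lower with TMM, beside 12.3% and 18.9% of all tested genes called lower.

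The relatives of the feedback genes did not share one direction. Of 8 other dual-specificity phosphatase genes 5 were tested. Dusp2 fell from 2.71 ± 0.77 FPKM in Solvent to 0.7 ± 0.246 in DNCB samples (log2 fold change -1.93, SE 0.58, edgeR adjusted p = 0.0253), and Dusp10 from 1.81 ± 0.412 to 0.708 ± 0.281 (-1.35, SE 0.43, adjusted p = 0.0319). Both rested on few libraries: the Dusp2 call ended without any of 4 libraries (Solvent replicates 1 and 2, DNCB replicates 1 and 3) and the Dusp10 call without any of 5 (Solvent replicates 1 and 3, DNCB replicates 1 and 3, scMSC replicate 3). Dusp16, named after its value was seen, rose (2.06, SE 0.41, adjusted p = 0.00184). Dusp6, an ERK phosphatase, was at 1.08 (adjusted p = 0.0941) and Dusp5 at 0.73 (0.345).

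Of 8 genes for AU-rich element binding and decay 6 were tested and none was called in DNCB against Solvent, beside 15.6% of all tested genes called higher. They include the paralogues of Zfp36, Zfp36l2 (14 ± 5.88 and 24.6 ± 5.65 FPKM, log2 fold change 0.82, adjusted p = 0.117) and Zfp36l1 (7.11 ± 3.94 and 5.94 ± 0.877, -0.26, adjusted p = 0.726), as well as Khsrp (-0.56, adjusted p = 0.387) and Hnrnpd (-0.49, adjusted p = 0.443). With total counts each of the 6 was called lower in scivMSC than in DNCB samples, beside 62.0% of all tested genes. With TMM none was called, beside 18.9% of tested genes called lower.

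**Figure D5:**
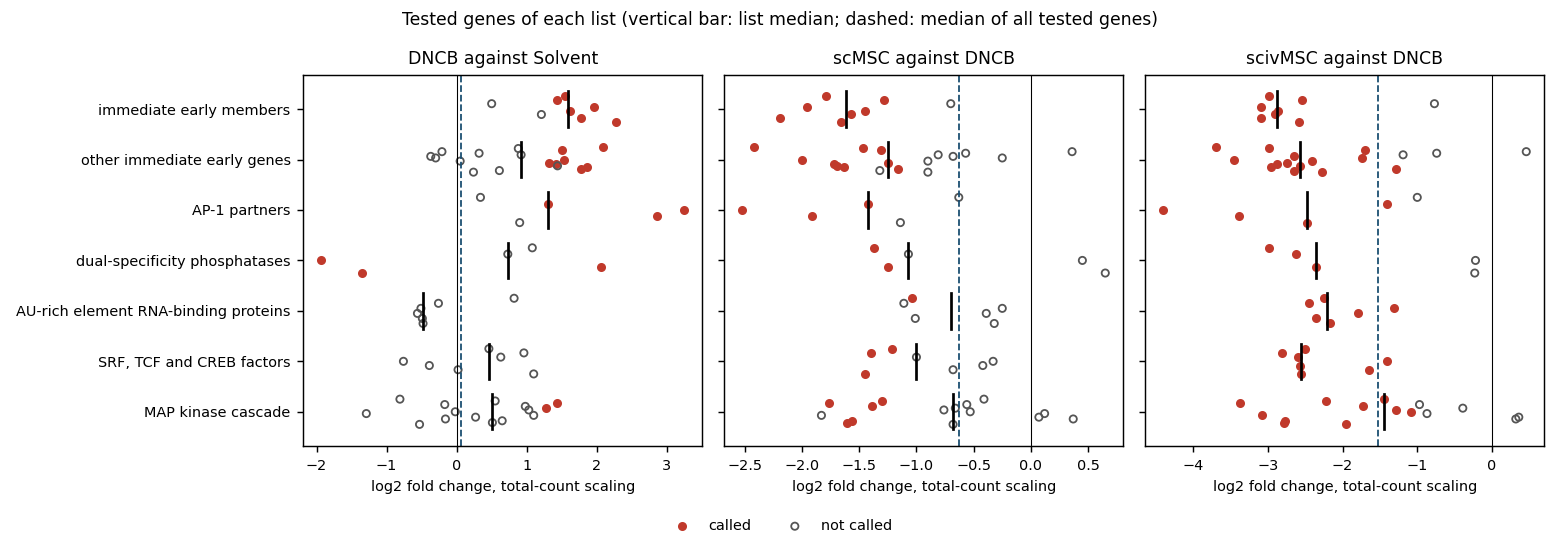
Log2 fold changes of the tested genes of each list in DNCB against Solvent, scMSC against DNCB and scivMSC against DNCB (total-count scaling), with 1 point per gene, filled where called; vertical bars mark the median of a list and dashed lines that of all tested genes. In DNCB against Solvent, the tested members run from 0.50 to 2.27 and lie on the upper side, while the phosphatases run from -1.93 to 2.06.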

How the data were processed

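RNA-seq of 12 whole-blood samples of mice was analysed from the authors' table of gene-level values, which holds an estimated count and an FPKM for each gene in each library. The authors deposited estimated counts, not normalised, and FPKM values, normalised to transcript length and library size. Per the submitters' processing notes, Bowtie 0.12.2, HISAT2 2.0 and StringTie 1.3.0 were used with build mm8. The deposited intervals, however, overlapped the GRCm38.p6 RefSeq interval of the same symbol for 21456 of 21469 symbols (99.9%), so that coordinates are printed as deposited and the build is uncertain. The members, gene lists and marker lists were chosen with earlier results of these data known.

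Estimated counts were rounded and analysed with edgeR 4.0.16 in R 4.3.3 (quasi-likelihood test, 4 group means over all 12 libraries, library size as the total count). Genes with at least 1 FPKM in at least 3 libraries were tested. A call required a Benjamini-Hochberg adjusted p under 0.05 over all 5527 tested genes and a fold above 2. Standard errors are the log2 fold change divided by the square root of F. The alternatives were TMM, haemoglobin genes left out, DESeq2 1.42.0, limma 3.58.1 on log2(FPKM + 1) and on log2(FPKM + 0.1), no filter, a mean of at least 5 FPKM, only the 2 groups compared, a replicate block, and each library left out. The code was tested on simulated data.

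The 10 members, the 4 most abundant tested genes of each list and the 2 nearest genes of each tested member by Pearson r were eligible to be named, with the nearest printed for each. Other members and genes with systematic names (Gm or Rik) were left out of that search. Totals were 52179764 to 65139421 counts per library, of which 5843407 to 12858063 lay outside haemoglobin and limit the precision. The error of each test is the spread among the 3 numbered samples within groups, pooled over the 4 groups and stabilised by the other genes. A permutation test of 3 against 3 samples cannot give a two-sided p below 0.1, so tests rest on the fit across genes. No promoter or protein sequence was used here. The values of 1 gene of the MAP kinase cascade list are not reported here.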

Additional observations from a re-analysis of the deposited data

How the results depend on the processing

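Counts of members called moved with scaling and with single libraries. In scMSC against DNCB the count of 7 became 3 with TMM and with DESeq2, and 3 to 7 when single libraries were left out. Between scMSC and Solvent samples it went from 0 to 1 with TMM and DESeq2 and stayed at 0 without any single library. Between scivMSC and Solvent samples the count of 6 became 2 with TMM, DESeq2 or haemoglobin left out, 3 with limma on log2(FPKM + 1), and 2 to 6 without single libraries. In scivMSC against scMSC the count of 5 became 0 with TMM, DESeq2 or only the 2 groups compared, 1 with a mean of at least 5 FPKM, 3 with limma on log2(FPKM + 1), and 0 to 6 without single libraries. Without single libraries the count was 4 to 7 in DNCB against Solvent and 7 in scivMSC against DNCB. Without the expression filter, 5 were called in DNCB against Solvent, and 6 and 7 in scMSC and scivMSC against DNCB. That setting gave 0 and 4 for scMSC and scivMSC against Solvent, and 4 between the routes. Jun was called there only in scivMSC against DNCB. Beyond the construction of each alternative (other sets of libraries or genes), the cause was not tested.

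Signs of Jund depended on scaling. With TMM, DESeq2 and haemoglobin left out, its log2 fold change was 0.33, 0.32 and 0.02 between scMSC and Solvent, 1.28, 1.32 and 0.16 for scivMSC relative to Solvent, and 0.95, 1 and 0.14 in scivMSC against scMSC (-0.14 to 0.02 without single libraries). In scivMSC against DNCB it was 0.95 with TMM and 0.94 with DESeq2. Dusp1 in scivMSC against Solvent was at 1.07, 1.09 and 0.06 in that order, and -0.65 to 0.07 without single libraries. Ier2 in scMSC against Solvent was at 0.23 with TMM, 0.22 with DESeq2 and -0.56 to 0.02 without single libraries. Between DNCB and Solvent samples Klf2 was at -0.08, -0.05 and -0.11 with TMM, DESeq2 and haemoglobin left out, and at -0.19 to 0.36 without single libraries. Left-out libraries gave -0.2 to 0.48 for Map2k3, -0.27 to 0.04 for Map2k2, -0.5 to 0.3 for Zfp36l1 and -0.78 to 0.02 for Hnrnpd. Of the members' log2 fold changes under these alternatives, 610 of 687 kept their direction and side of the threshold.

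Correlations of same-numbered deviations were low, from -0.20 to 0.17, while 7 of 12 libraries were closest to their own number. With so few libraries this check cannot exclude that the replicate numbers pair the samples. The replicate block gave 7 called members between DNCB and Solvent, 7 for each MSC group relative to DNCB, 0 and 6 against Solvent for scMSC and scivMSC, and 5 between the routes. Fosb and Egr1 had at most 48 and 169 counts in a library, which limits their precision.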
